A study of Homo sapiens with 6 samples.

Results

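The FXYD regulators and sodium pump beta subunits form a group of 6 genes, *FXYD3*, *FXYD5*, *FXYD2*, *ATP1B1*, *ATP1B2* and *ATP1B3*, out of 58302 genes counted in each library. They were taken by gene symbol, and the list itself was chosen by the measured difference between the same control and knockdown libraries. The values of that comparison are therefore given as descriptions, and where calls over all genes are counted, those that fall on the 6 genes are no evidence about them. RNA-seq was done on MDA-MB-231 cells, an established human breast cancer line classed as mesenchymal and basal-like. The 3 control libraries came from cells carrying a control shRNA, and the 3 knockdown libraries from cells carrying Smyca shRNA #1, with the question of which transcripts depend on Smyca, a long noncoding RNA. Both shRNAs were stably expressed in the same parental line, and 1 shRNA against Smyca was sequenced, so an effect of this hairpin outside its target cannot be told apart from the loss of Smyca. The study describes the repeats as biological, but the labels do not say whether they were separate cultures, and p-values measure only the spread between these libraries.

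The sodium pump, or Na,K-ATPase, moves sodium out of the cell and potassium in at the cost of ATP. Its catalytic alpha subunit needs a glycosylated beta subunit to fold and reach the plasma membrane, where beta subunits of neighbouring epithelial cells also take part in adhesion. FXYD proteins are short single-span membrane proteins that bind the assembled pump and tune its affinity for ions. FXYD5, also called dysadherin, and FXYD3, first described in mammary tumours as MAT-8, are the members of this family best known in carcinoma cells.

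*FXYD5* differed most between the groups, with a 2.04-fold higher level in control than in knockdown cells. *ATP1B1* was 1.46-fold higher in the knockdown. *FXYD3* and *ATP1B3* varied as much within the groups as between them. *FXYD2* and *ATP1B2*, the regulator known from the kidney tubule and the beta subunit known from glial cells, had almost no reads.

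The target of the knockdown was measured as *MIR23AHG*, the gene under which Smyca is annotated. It stood at 25.0, 19.5 and 22 normalized CPM in control replicates 1, 2 and 3, and at 10.5, 6.97 and 5.61 in knockdown replicates 1, 2 and 3. Normalized CPM are counts scaled by library size after TMM (trimmed mean of M values) correction. Every control library lay above every knockdown library. The log2 fold change, given here and throughout as control over knockdown, was 1.53 (SE 0.26, adjusted p = 0.111 by edgeR's quasi-likelihood test and 3.71e-05 by DESeq2). Libraries held 14999307 to 16501085 counts. Control replicate 3 stood apart, with correlations of 0.957 and 0.966 to the other control libraries, which correlated with each other at 0.991. Its correlations to the 3 knockdown libraries, 0.973 to 0.974, were higher than to either control library. It had 4.99% mitochondrial counts against 1.78% to 2.72% in the other 5 libraries. In control replicate 2, the deposited FPKM values did not follow the counts beside them, as they did in the other 5 libraries, so results are also given without control replicate 3 and with reads recovered from the FPKM values of control replicate 2.

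The label of the cells was checked against marker genes. All 10 markers of basal, mesenchymal breast lines, *VIM* and *CD44* among them, had at least 10 counts in every library, at a summed level of 1017 to 2299 CPM in control and 930 to 1385 CPM in knockdown libraries. edgeR called 0 of the 10 as differentially expressed, 8 had an unadjusted p under 0.05 with control higher, and DESeq2 called 4. Over all 15075 genes tested these shares were 0.0265% by edgeR, 19.2% at an unadjusted p under 0.05 in either direction and 5.64% by DESeq2. Of 8 luminal markers, 3 (*ESR1*, *PGR* and *FOXA1*) had at most 5 counts in every library, while the other 5, *ERBB3* and *AGR2* among them, had at least 10 in every library. The 8 summed to 192 to 209 CPM in control and 132 to 187 CPM in knockdown libraries. Among the 5 tested, edgeR called 0, 1 had an unadjusted p under 0.05 with control higher, and DESeq2 called 1. That gene was *AGR2* at a log2 fold change of 1.12 (SE 0.23, adjusted p = 0.111 by edgeR), while *ERBB3* stood at -0.10 (SE 0.17). Epithelial and intestinal genes were measured as well. Of 12 general epithelial markers 10 had at least 10 counts in every library, with *KRT8* at 4249 to 4775 CPM in control and 5083 to 7408 CPM in knockdown libraries. All 12 together, *KRT8* the largest part, summed to 7390 to 8774 CPM in control and 7935 to 10698 CPM in knockdown libraries. Among the 11 tested the median log2 fold change was 0.03, edgeR called 0, 3 had an unadjusted p under 0.05 (2 with control higher and 1 with knockdown higher) and DESeq2 called 1, *ELF3*, an epithelial transcription factor that was higher in control at 1.43 (SE 0.35, adjusted p = 0.122 by edgeR), beside the same 19.2% and 5.64% of all genes. Of 12 intestinal markers 6 had as many counts, and the summed level of the 12 was 339 to 611 CPM in control and 694 to 819 CPM in knockdown libraries. *HNF4A*, a transcription factor of gut and liver, was at 65.4 CPM in control replicate 3 and between 168 and 194 CPM in the other 5 libraries. At most 5 counts in every library were found for 6 of 9 hepatocyte, 5 of 7 kidney tubule and 4 of 5 blood cell markers, with *PTPRC*, the leukocyte common antigen, at 0. The epithelial and intestinal levels go against a purely mesenchymal breast line, and the part of these marker genes in the differences below was not tested. In bulk libraries such as these, fewer cells of a type and less RNA per cell cannot be told apart.

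*FXYD5* (ENSG00000089327) encodes a glycosylated FXYD protein that is known to weaken contacts between carcinoma cells. The gene lies on the plus strand of chromosome 19, from 35154730 to 35169881 in GRCh38. Normalized CPM were 70.1, 61.7 and 50.1 in control replicates 1, 2 and 3. In knockdown replicates 1, 2 and 3 they were 34.5, 27.7 and 27.1. The lowest control library was above the highest knockdown library. The counts behind these levels were 1136, 1003 and 783 in control and 544, 438 and 410 in knockdown libraries. The group means were 60.7 ± 10 CPM and 29.8 ± 4.13 CPM (SD, n = 3 each), a 2.04-fold higher level in control cells, or a log2 fold change of 1.03 (SE 0.18). The log2 fold change was 1.14 (SE 0.16) without control replicate 3 and 0.91 (SE 0.19) with the recovered reads of control replicate 2.

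*FXYD3* (ENSG00000089356) encodes an FXYD protein of epithelial and tumour cells. It lies on the same strand of the same chromosome, from 35115823 to 35124324. Its levels were 18.4, 17.0 and 12.7 CPM in control replicates 1, 2 and 3 and 28.1, 19.3 and 10 CPM in knockdown replicates 1, 2 and 3. The knockdown group held both the highest and the lowest library, so the groups overlapped. The log2 fold change was -0.25 (SE 0.34), on 152 to 442 counts per library. It was 0.12 without knockdown replicate 1, -0.57 without knockdown replicate 3, -0.12 without control replicate 3 and -0.42 with the recovered reads. Only the fit without knockdown replicate 1 turned its direction, which thus rested on that library. Annotation adds a limit, because the exons of *FXYD3* share 1292 bases with ENSG00000285526, a protein-coding gene on the same strand that has no row in the count files.

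*FXYD2* (ENSG00000137731), whose product is the gamma subunit of the kidney pump, is on the minus strand of chromosome 11, from 117800844 to 117828698. It had 2, 0 and 2 counts in control replicates 1, 2 and 3 and 2 counts in each of the 3 knockdown libraries. At these counts no difference was detectable, and the gene was not fitted. Its exons share 392 bases with the readthrough gene *FXYD6-FXYD2* on the same strand, which had 0 counts. They share 433 bases with the noncoding gene ENSG00000254844 on the opposite strand, also at 0 counts. How reads in shared exons were counted is not given in the sources used here.

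*ATP1B1* (ENSG00000143153) encodes the beta subunit typical of epithelia, which supports cell contacts besides its role in pump assembly. It lies on the plus strand of chromosome 1, from 169105697 to 169310992. Its levels were 34.4, 35.8 and 34.2 CPM in control replicates 1, 2 and 3 and 55.8, 52.6 and 43.5 CPM in knockdown replicates 1, 2 and 3. All 3 knockdown libraries were above all 3 control libraries, and the control libraries lay within a narrow range. Counts were 534 to 581 in control and 659 to 879 in knockdown libraries. The means were 34.8 ± 0.838 CPM and 50.6 ± 6.38 CPM (SD, n = 3 each), which is 1.46-fold higher in the knockdown, with a log2 fold change of -0.54 (SE 0.15). It was -0.53 without control replicate 3 and -0.61 with the recovered reads. The exons of *ATP1B1* share 287 bases with *NME7* on the opposite strand, and whether counting used strand is not given in the sources used here. *NME7*, a nucleoside diphosphate kinase family gene, had 10.3 to 15.2 CPM over the 6 libraries and a log2 fold change of -0.16 (SE 0.20, adjusted p = 0.693 by edgeR).

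*ATP1B3* (ENSG00000069849), the beta subunit found in most tissues, lies on the plus strand of chromosome 3, from 141876124 to 141926549. Its levels were 88.1, 90.6 and 144 CPM in control replicates 1, 2 and 3 and 105, 114 and 115 CPM in knockdown replicates 1, 2 and 3. Control replicate 3 was above all other libraries, and the other 2 control libraries were below all knockdown libraries. The log2 fold change was -0.05 (SE 0.21) over all 6 libraries and -0.32 (SE 0.14) without control replicate 3. With the recovered reads of control replicate 2 it was 0.14 (SE 0.20). It was 0.07 without control replicate 1, 0.05 without control replicate 2 and 0.02 with total counts and no composition factor. The direction for *ATP1B3* thus turned with the control data used and with the normalization.

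*ATP1B2* (ENSG00000129244), on the plus strand of chromosome 17 from 7646627 to 7657770, encodes a beta subunit first known as an adhesion molecule on glia. Its counts were 4, 5 and 3 in control replicates 1, 2 and 3 and 4, 6 and 11 in knockdown replicates 1, 2 and 3. These were too few for the filter on low counts, and the gene was not fitted.

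**Figure D1:**
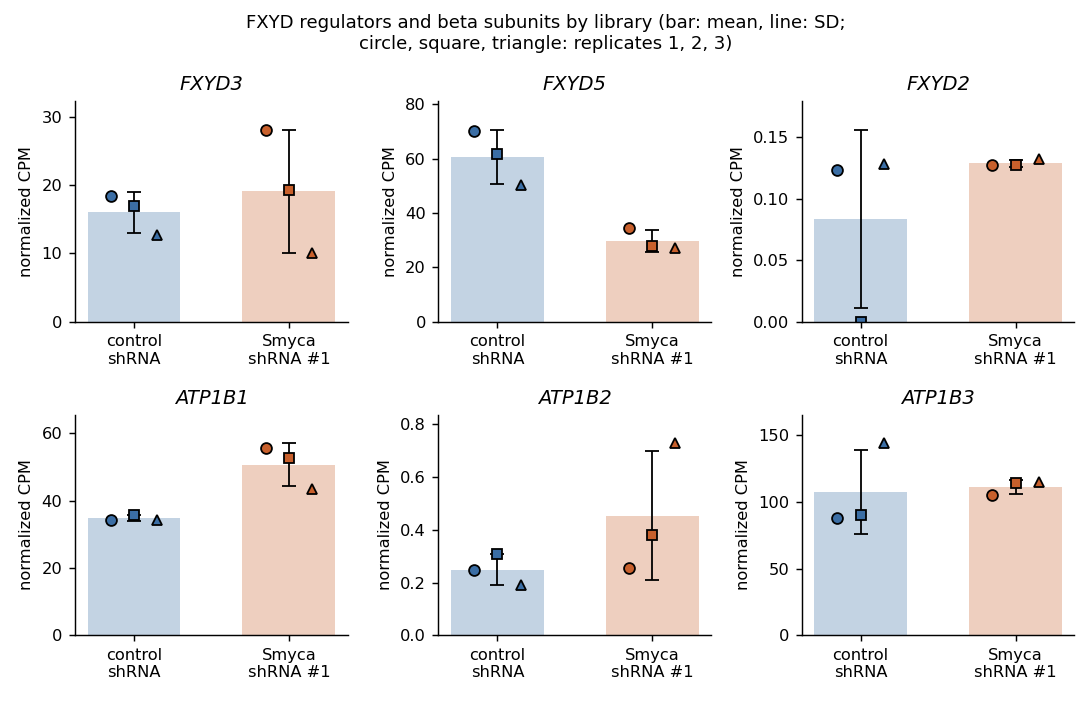
Normalized CPM (y axis) of the 6 genes in control shRNA and Smyca shRNA #1 cells (x axis), with bars for the mean, lines for the SD and 1 point per library (n = 3 each). *FXYD5* points separate with control above, *ATP1B1* points separate with knockdown above, *FXYD3* and *ATP1B3* points overlap, and *FXYD2* and *ATP1B2* stay below 1 CPM.

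Of the 6 genes, 4 passed the filter on low counts, among 15075 genes that did. A gene counted as differentially expressed (DEG) when its control-to-knockdown ratio reached 1.5 or was no more than 0.66, with adjusted p below 0.05. edgeR called 0 of the 4 and 0.0265% of all genes tested. At an unadjusted p under 0.05 it picked out *FXYD5* and *ATP1B1*, against 19.2% of all genes, and DESeq2 called *FXYD5* alone, against 5.64%. Because the genes were chosen on this contrast, nothing is read from these counts. Groups without overlap and with control higher were found for *FXYD5* and 12.4% of all genes, with knockdown higher for *ATP1B1* and 12.5%, and in either direction for 24.8%. Without control replicate 3, edgeR called 1628 of 15449 genes tested in place of 4, *FXYD5* among them.

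**Figure D2:**
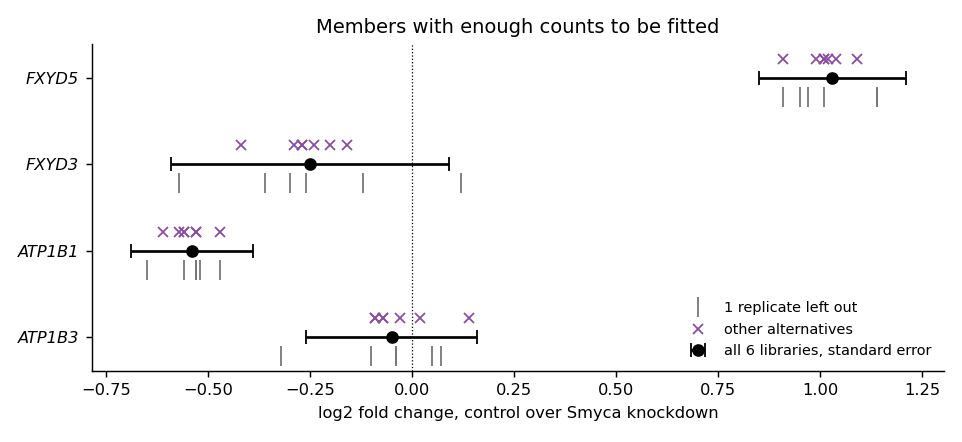
Log2 fold change, control over Smyca knockdown (x axis), of the 4 fitted genes (y axis), with the value over all 6 libraries and its SE (circle and line), the fits with 1 replicate left out (ticks) and the other alternatives (crosses). All values lie between 0.91 and 1.14 for *FXYD5* and between -0.65 and -0.47 for *ATP1B1*, while those of *FXYD3* (-0.57 to 0.12) and *ATP1B3* (-0.32 to 0.14) fall on both sides of 0.

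The spread between replicates, pooled over both groups on the log2 scale, was smallest for *ATP1B1* (SD 0.13), larger for *FXYD5* (0.22) and *ATP1B3* (0.28) and largest for *FXYD3* (0.53). Over the 6 libraries, which share the 2 groups and the same library totals for every gene, *ATP1B1* and *FXYD5* had a Pearson correlation of -0.81. *ATP1B1* and *FXYD3* stood at 0.51, and *FXYD5* and *FXYD3*, which lie on the same strand of chromosome 19, at 0.09. *ATP1B3* had correlations of -0.44 with *FXYD3*, -0.45 with *FXYD5* and 0.08 with *ATP1B1*.

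To compare levels between genes, CPM taken from library totals were divided by the gene length, in kilobases, behind the deposited FPKM values. On this scale of CPM per kilobase, *ATP1B3* was the highest of the 6 genes, at 118 ± 36.7 in control and 116 ± 3.51 in knockdown cells (SD, n = 3 each). In control cells *FXYD5* came next at 72.1 ± 10.1, and its 60.8 to 80.2 lay below the 92.7 to 160 of *ATP1B3*. *ATP1B1* at 20.5 ± 1.01 and *FXYD3* at 18.9 ± 3.10 did not differ beyond their spread. In the knockdown, *FXYD5* at 33.9 ± 5.58, *ATP1B1* at 28.5 ± 4.13 and *FXYD3* at 21.7 ± 10.7 overlapped one another. *ATP1B2* (0.140 to 0.487 over the 6 libraries) and *FXYD2* (0 to 0.131) were the lowest of the 6.

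Within the FXYD family the shares of the reads are given as a description only, since the members were chosen on this contrast. *FXYD5* made up 76.6%, 76.7% and 77.1% of the length-corrected FXYD reads in control replicates 1, 2 and 3 and 52.1%, 56.1% and 71.4% in knockdown replicates 1, 2 and 3. The control libraries were alike and all above the knockdown libraries, of which replicate 3 was nearest to them. For levels of single genes, 24.8% of all genes tested had groups without overlap. The means were 76.8% ± 0.273 and 59.9% ± 10.2 (SD, n = 3 each). *FXYD3* made up 19.4% to 20.9% in control and 26.2% to 42.0% in knockdown libraries. Shares depend on one another, so that of *FXYD3* rises where *FXYD5* falls. The level of *FXYD3* itself overlapped between the groups. The ratio of *FXYD5* to *FXYD3* was 3.84, 3.66 and 3.97 in control replicates 1, 2 and 3 and 1.24, 1.45 and 2.72 in knockdown replicates 1, 2 and 3. The difference in the *FXYD5* share, 17.0 percentage points, was 13.1 without knockdown replicate 1 and 22.7 without knockdown replicate 3. Summed over the family, levels were 105, 97.9 and 78.9 CPM per kilobase in control replicates 1, 2 and 3 and 77.4, 55.5 and 42.4 in knockdown replicates 1, 2 and 3.

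Among beta subunits, *ATP1B3* made up 77.6% to 88.6% of the length-corrected reads in every library. *ATP1B1* made up 17.3%, 17.5% and 11.3% in control replicates 1, 2 and 3 and 22.3%, 19.8% and 16.8% in knockdown replicates 1, 2 and 3. The mean shares of 15.4% ± 3.51 in control and 19.6% ± 2.74 in knockdown cells (SD, n = 3 each) came from overlapping libraries. Their difference, control minus knockdown, was -4.24 percentage points and -2.21 without control replicate 3, in which *ATP1B3* was highest. With the recovered reads of control replicate 2 the difference was -6.41 percentage points.

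**Figure D3:**
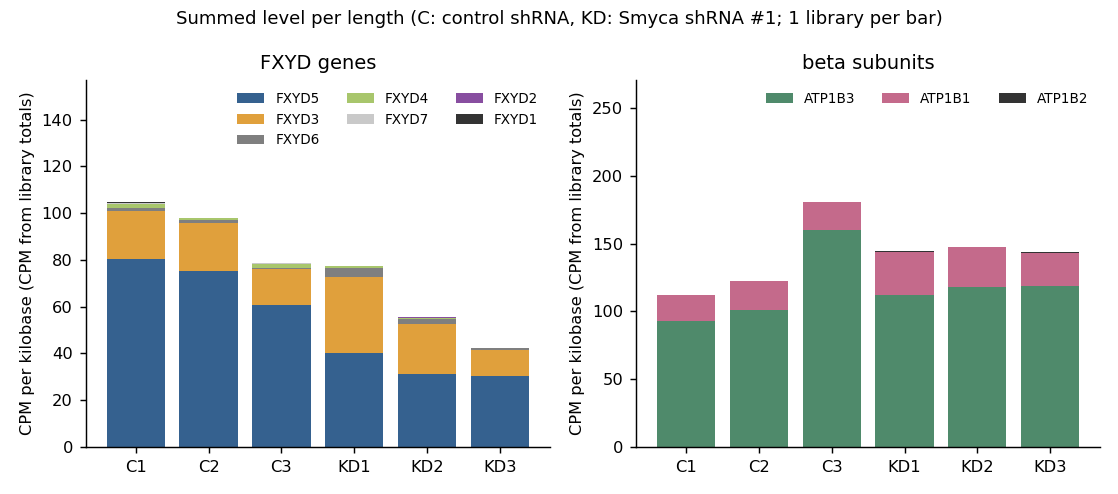
Level per length in CPM per kilobase (y axis) in each control (C1 to C3) and knockdown (KD1 to KD3) library (x axis), stacked over the FXYD genes (left) and the beta subunits (right). *FXYD5* is the largest part of the FXYD bars at 76.6% to 77.1% in control and 52.1% to 71.4% in knockdown libraries, and C3 has the tallest beta subunit bar through *ATP1B3*.

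Of 6 further beta subunit and FXYD genes, 1 passed the filter, with 0 called by edgeR, 0 with an unadjusted p under 0.05 and 0 called by DESeq2. *FXYD6*, a regulator best known from brain, had 1.05, 1.29 and 0.512 CPM in control replicates 1, 2 and 3 and 3.94, 2.28 and 0.858 CPM in knockdown replicates 1, 2 and 3, with overlapping groups (-1.30, SE 0.59, adjusted p = 0.270 by edgeR). *FXYD4* had 18, 8 and 14 counts in control and 5, 3 and 0 counts in knockdown libraries and was not fitted. *FXYD7* had at most 5 counts in any library, *FXYD1* had at most 2, and *ATP1B4* and the readthrough gene *FXYD6-FXYD2* had 0.

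Across all lists of pump, sodium, potassium, transport control and adhesion genes outside the group, 45 of 69 genes were tested, with a median log2 fold change of 0.00, beside 0.04 over all genes tested. edgeR called 0 of them, 7 had an unadjusted p under 0.05 (4 with control higher and 3 with knockdown higher), and DESeq2 called 5, beside the 19.2% and 5.64% of all genes tested given above. In 36 of the 45 the groups overlapped, in 5 every control library was higher and in 4 every knockdown library was higher, beside the 24.8% of all genes without overlap. The lists were drawn up with results of these libraries known.

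Of 20 genes by which sodium enters the cell, 13 were tested, 0 were called by edgeR, 1 had an unadjusted p under 0.05 and DESeq2 called 1. *SCNN1A*, the alpha subunit of the epithelial sodium channel, had 81.8, 90.5 and 101 CPM in control replicates 1, 2 and 3 and 152, 171 and 178 CPM in knockdown replicates 1, 2 and 3. The knockdown libraries were all higher, at a log2 fold change of -0.87 (SE 0.15), with an adjusted p = 0.111 by edgeR. The cotransporter *SLC12A2*, which brings in sodium with potassium and chloride, had -0.54 (SE 0.33, adjusted p = 0.406), and the phosphate carrier *SLC20A2* had -0.39 (SE 0.20, adjusted p = 0.313). The list's median was -0.11.

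Of 13 genes by which potassium leaves, 10 were tested, 0 were called by edgeR, 2 had an unadjusted p under 0.05 and DESeq2 called 2. *KCNE3*, a partner of the channel KCNQ1 in epithelia, had 10.4, 12.6 and 12.7 CPM in control replicates 1, 2 and 3 and 32.4, 31.0 and 23.4 CPM in knockdown replicates 1, 2 and 3. The knockdown libraries were all higher, with a log2 fold change of -1.29 (SE 0.20, adjusted p = 0.111 by edgeR). *KCNK5*, an acid-sensitive potassium channel, stood at -0.46 (SE 0.21) and the cotransporter *SLC12A4* at 0.31 (SE 0.17). *KCNN4*, a calcium-gated potassium channel named after its values were seen because DESeq2 called it, had 19.6, 10.2 and 2.05 CPM in control replicates 1, 2 and 3 and 4.0, 1.90 and 1.32 CPM in knockdown replicates 1, 2 and 3. Its groups overlapped through control replicate 3 (2.14, SE 0.73, adjusted p = 0.177 by edgeR). The list's median was 0.10.

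Of 13 kinases, ligases and receptors that control sodium transport, 12 were tested, 0 were called by edgeR, 3 had an unadjusted p under 0.05, all with control higher, and DESeq2 called 1. That 1 was *SGK1*, a steroid-induced kinase that raises pump and channel activity, also named after its values were seen. It had 8.58, 2.34 and 3.07 CPM in control replicates 1, 2 and 3 and 0.635, 0.950 and 2.05 CPM in knockdown replicates 1, 2 and 3, without overlap (1.94, SE 0.61, adjusted p = 0.154 by edgeR). *HSD11B2*, which inactivates cortisol in aldosterone-responsive cells, stood at -0.40 (SE 0.40) and the kinase *WNK1* at -0.24 (SE 0.17). *SIK1*, a salt-inducible kinase, stood at 0.43 (SE 0.34), and its reads are uncertain because of the near-identical copy *SIK1B*. The list's median was 0.06.

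Of 10 adhesion partners, 8 were tested, 0 were called by edgeR, 1 had an unadjusted p under 0.05 and DESeq2 called 1. *CDH1*, E-cadherin, the epithelial adhesion molecule that dysadherin is known to lower, had 300, 192 and 71.5 CPM in control replicates 1, 2 and 3 and 93.8, 77.6 and 172 CPM in knockdown replicates 1, 2 and 3. Its groups overlapped widely (0.72, SE 0.48, adjusted p = 0.443 by edgeR). *CTNNB1*, beta-catenin, was higher in all knockdown libraries at -0.66 (SE 0.18, adjusted p = 0.127 by edgeR), and the tight junction gene *OCLN* overlapped at -0.30 (SE 0.23). The list's median was 0.03. Without control replicate 3, edgeR called *HSD11B2*, *KCNE3*, *KCNN4* and *SCNN1A*, 4 of the listed genes. In that setting it called 1628 of all 15449 genes tested, so nothing particular to the lists is read from these calls. Among 7 related proton pump and NKAIN genes, 1 was tested, *NKAIN1*, whose product binds the pump's beta subunit, at -0.53 (SE 0.28, adjusted p = 0.336 by edgeR).

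**Figure D4:**
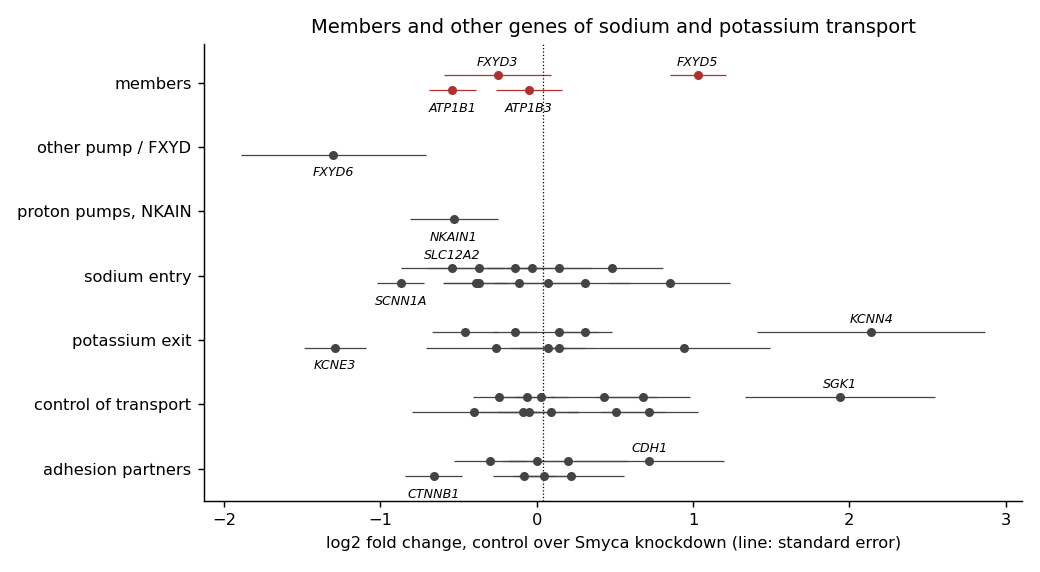
Log2 fold change, control over Smyca knockdown (x axis, lines for the SE), of the 4 fitted members (red) and the 45 other genes tested, by list (y axis), with the median of all genes (0.04) as a dotted line. Most genes lie near the dotted line, *KCNN4* and *SGK1* lie far to the right with wide errors, and *KCNE3*, *FXYD6* and *SCNN1A* lie to the left.

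By their annotated places, *FXYD3* and *FXYD5* lie in a cluster of FXYD genes. *FXYD7*, which had at most 5 counts, ends 427 bases before *FXYD5* begins, and *LGI4*, on the opposite strand, lies 188 bases beyond *FXYD3*. The other nearest protein-coding neighbours were *HPN* beside *FXYD3*, at a log2 fold change of -0.28 (SE 0.56), and *FAM187B* beside *FXYD5*, which had at most 1 count. *LGI4* itself stood at 0.99 (SE 0.58, adjusted p = 0.380 by edgeR) on 6 to 25 counts. Beside *ATP1B1* lay *BLZF1* at -0.13 (SE 0.18) and *DPT* with 0 counts, and beside *ATP1B3* lay *TFDP2* at -0.15 (SE 0.19) and *GRK7* with at most 3 counts. Among the 4 neighbours fitted, edgeR called 0 and 0 had an unadjusted p under 0.05, and DESeq2, which gave *LGI4* no adjusted p, called 0.

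The genes whose levels ran most like those of the members were taken by Pearson correlation of log2(CPM + 1) over the 6 libraries among 9539 genes. For *FXYD5* they were *TAGLN* (0.996), a smooth muscle actin-binding protein, the phosphatase *PTPN6* (0.995) and the calcium-binding *NUCB2* (0.993). *TAGLN* was at 16.0, 15.3 and 10.8 CPM in control replicates 1, 2 and 3 and 7.49, 5.83 and 5.81 CPM in knockdown replicates 1, 2 and 3, a log2 fold change of 1.14 (SE 0.24) beside the 1.03 of *FXYD5*. For *ATP1B1* they were the caveolar protein *CAVIN3* (0.998), *LYRM1* (0.997) and the membrane protein *MPZL1* (0.992). For *FXYD3* they were the aldehyde dehydrogenase *ALDH2* (0.983), the metalloproteinase *MMP17* (0.978) and the collagen *COL4A2* (0.974). With 6 libraries and so many genes compared, values this near 1 are a description of these libraries only.

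The reference promoters of *FXYD5*, *FXYD3* and *ATP1B1* are shown because these 3 genes differ in how they ran across the libraries, and because the study concerns the Smad and Myc pathways, whose recognition motifs can be looked up in them. Each is the 250 bases before the start that RefSeq gives in GRCh38.p14, written 5′ to 3′. They lie at chr19:35154485-35154734 (*FXYD5*), chr19:35117750-35117999 (*FXYD3*) and chr1:169106440-169106689 (*ATP1B1*), all on the plus strand. The windows of *FXYD3* and *ATP1B1* fall inside the GENCODE spans given above, which begin further upstream. Capitals mark matches on either strand to the Smad box (CAGAC or GTCTG) or the GC box (GGGCGG or CCGCCC).
FXYD5: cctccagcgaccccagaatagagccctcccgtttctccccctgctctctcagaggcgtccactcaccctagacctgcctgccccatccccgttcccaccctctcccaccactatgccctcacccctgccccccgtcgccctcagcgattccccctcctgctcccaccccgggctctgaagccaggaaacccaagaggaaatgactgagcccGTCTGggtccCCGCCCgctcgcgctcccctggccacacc
FXYD3: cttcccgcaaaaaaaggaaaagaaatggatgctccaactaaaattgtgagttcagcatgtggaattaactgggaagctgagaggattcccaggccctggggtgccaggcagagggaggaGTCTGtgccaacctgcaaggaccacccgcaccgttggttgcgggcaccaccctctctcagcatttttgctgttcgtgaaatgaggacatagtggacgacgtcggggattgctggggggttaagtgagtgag
ATP1B1: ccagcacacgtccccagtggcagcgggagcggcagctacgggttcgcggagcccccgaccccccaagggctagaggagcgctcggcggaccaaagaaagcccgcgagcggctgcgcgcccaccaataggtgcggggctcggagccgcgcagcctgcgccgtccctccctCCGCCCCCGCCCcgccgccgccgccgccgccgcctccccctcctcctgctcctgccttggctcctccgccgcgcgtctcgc
A Smad box was present in 38.0% of 34788 RefSeq promoters of this length and a GC box in 42.6%. *FXYD5* held 1 Smad box whose first base lies 39 bases before the start, and 1 GC box at 29 bases. *FXYD3* held 1 Smad box at 131 bases and no GC box, and *ATP1B1* held 2 adjacent GC boxes at 81 and 75 bases and no Smad box. The Myc/Max E-box (CACGTG, in 6.31% of promoters) and the AP-1 site (TGANTCA, in 6.59%) had 0 matches in these promoters and in those of *ATP1B2* and *ATP1B3*. The GC content was 68.0% for *FXYD5*, 53.6% for *FXYD3* and 77.6% for *ATP1B1*, beside a median of 58.0% over all promoters. A match is a run of letters and not a binding site, and binding was not measured in these libraries.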

How the data were processed

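RNA from 3 control and 3 Smyca knockdown libraries had been rRNA-depleted, sequenced as paired ends from strand-specific libraries, mapped to GRCh38 with TopHat2 2.0.12 and counted with HTSeq by the authors. The annotation release and the strand setting of the counting are not given in the sources used here. For each library the authors deposited read counts and FPKM values over 58302 genes. Counts were used for all fits. FPKM values gave gene lengths and, for control replicate 2, the whole reads of an alternative: 100.0% of its values below 200 reads were whole within 0.05 reads, and 3357 genes had FPKM above 0 beside 0 counts.

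GENCODE 44 matched symbols to 57532 identifiers. Counts were fitted in R 4.3.3 with edgeR 4.0.16 (TMM, filterByExpr, quasi-likelihood test, Benjamini-Hochberg adjustment over 15075 genes), and with DESeq2 1.42.0 as an alternative. The biological coefficient of variation was 25.2%. The code was tested on simulated counts. The fit had group as its only term.

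The members and lists were chosen with earlier results of these data known. Named genes were the members, the other beta subunit and FXYD genes, the neighbours, 3 genes per member most like it, and, per list, DEGs or else the 3 with the largest fold change at a mean of at least 10 CPM. Some genes of the lists are not reported here.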

Additional observations from a re-analysis of the deposited data

How the results depend on the processing

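All 13 alternatives were run on each of the 4 fitted members. The log2 fold change, control over knockdown, ran from 0.91 to 1.14 for *FXYD5* and from -0.65 to -0.47 for *ATP1B1*, and crossed 0 for *FXYD3* (-0.57 to 0.12) and *ATP1B3* (-0.32 to 0.14). The number of DEGs over all genes was 4 and moved most. It was 8 with total counts and no composition factor, 916 with no filter beyond 1 count, 10 with the recovered reads of control replicate 2 and 850 with DESeq2, and ranged from 0 to 1628 with 1 replicate left out, the highest without control replicate 3. Listed transport and adhesion genes called went from 0 to 5 with no filter and with DESeq2, and from 0 to 4 with 1 replicate left out. With the replicate block, pairing libraries by number only, 0 genes were called and 2568 had an unadjusted p under 0.05, and the log2 fold changes were 1.02 for *FXYD5*, -0.53 for *ATP1B1*, -0.16 for *FXYD3* and -0.09 for *ATP1B3*. Deviations of same-numbered libraries correlated at 0.0607, 0.0842 and -0.0139, and not every library correlated best with its own number. The causes of these shifts were not tested. Low counts limit *FXYD2* and *ATP1B2*, with at most 2 and 11 counts.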
